A study of Mus musculus with 8 samples.

Results

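The genes described here encode 10 liver enzymes that handle nitrogen and amino acids on the portal side of the lobule. They are Cps1, Otc, Ass1 and Arg1 of the urea cycle, the liver glutaminase Gls2, the histidine-degrading enzymes Hal and Uroc1, the serine dehydratases Sds and Sdsl, and the glyoxylate aminotransferase Agxt. The genes were chosen by name, and all 10 were found among the 23006 genes of the count table. Livers of wild-type mice gave 8 RNA-seq libraries, with 4 groups of 2. Controls were given phosphate-buffered saline (PBS). Mice of the SLIT2 group were injected intraperitoneally with 2 µg of SLIT2, which is secreted and binds ROBO receptors, during 3 days. APAP mice were given PBS and 400 mg/kg acetaminophen (APAP), SLIT2+APAP mice both agents, and the livers were collected 24 h after APAP. The labels do not state strain, age or sex, nor that paired libraries are from different animals. The p-values therefore measure only the spread between these libraries, which may be technical.

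Ammonia reaching the liver in portal blood is built into carbamoyl phosphate by CPS1 inside mitochondria. OTC joins it to ornithine, ASS1 and ASL carry the nitrogen through argininosuccinate in the cytosol, and ARG1 releases urea and returns ornithine. These enzymes and several that strip nitrogen from glutamine, histidine and serine are most abundant in periportal hepatocytes, whereas glutamine synthetase (Glul) and ornithine aminotransferase (Oat) mark the hepatocytes around the central vein, the zone that an APAP overdose injures. Position in the lobule was not measured in these libraries, so "periportal" is a name from textbook knowledge. In bulk tissue, fewer cells of a type and less RNA per cell cannot be told apart.

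The libraries held between 60.8 and 100.5 M counts (M, 1000000). The 13 protein genes encoded by mitochondrial DNA took 16.0% and 17.3% of counts in the control libraries, 14.9% and 13.4% in the APAP libraries and 25.1% and 30.3% in the SLIT2+APAP libraries. In the SLIT2 libraries they took 60.3% and 69.0%, so these libraries stood apart and held 25.2 and 18.9 M counts outside those genes, against 55.2 to 85.8 M in the other 6. Skeletal muscle markers summed to 886 and 97.7 counts per 1000000 (CPM) in the control libraries and to at most 2.22 CPM in the others. The 12 hepatocyte markers were present throughout, with summed levels of 72834 to 92999 CPM in control, 9582 to 17766 in SLIT2, 114729 to 132168 in APAP and 77982 to 82586 in SLIT2+APAP libraries.

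All 10 enzymes passed the filter on low counts. The lowest count was 567, for Sdsl. Levels below are CPM on library sizes scaled by TMM (trimmed mean of M-values, which assumes that most genes do not change), and each list of values gives the controls first. Changes are edgeR log2 fold changes with their standard errors, and a call means a p under 0.05 after Benjamini-Hochberg adjustment over the 16876 genes tested. Of the 4 pairwise comparisons, 3 share the control libraries, 2 share the APAP libraries and 2 share the SLIT2+APAP libraries.

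For 5 of the 10 genes (Otc, Agxt, Uroc1, Ass1 and Hal) RefSeq promoter sequence of GRCm38.p6 was at hand. The 250 bases upstream of the start are shown for 3 of them, because Otc and Agxt fell with SLIT2 alone and differed in their response to SLIT2 with and without APAP, while Uroc1 was the gene called in the opposite direction. Otc lies at chrX:10252055-10252304 (plus strand), Agxt at chr1:93134990-93135239 (plus strand) and Uroc1 at chr6:90333039-90333288 (plus strand). Capitals mark TGTTCT, an element bound by the glucocorticoid receptor.
Otc: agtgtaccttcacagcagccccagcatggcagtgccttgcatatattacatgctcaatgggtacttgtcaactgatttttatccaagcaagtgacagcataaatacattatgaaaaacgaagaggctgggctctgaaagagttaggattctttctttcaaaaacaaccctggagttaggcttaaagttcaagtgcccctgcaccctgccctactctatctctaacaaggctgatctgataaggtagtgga
Agxt: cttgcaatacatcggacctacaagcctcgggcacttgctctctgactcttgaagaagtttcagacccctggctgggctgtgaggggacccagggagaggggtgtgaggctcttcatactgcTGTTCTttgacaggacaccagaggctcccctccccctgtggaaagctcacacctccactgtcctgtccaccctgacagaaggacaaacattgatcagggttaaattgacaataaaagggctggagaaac
Uroc1: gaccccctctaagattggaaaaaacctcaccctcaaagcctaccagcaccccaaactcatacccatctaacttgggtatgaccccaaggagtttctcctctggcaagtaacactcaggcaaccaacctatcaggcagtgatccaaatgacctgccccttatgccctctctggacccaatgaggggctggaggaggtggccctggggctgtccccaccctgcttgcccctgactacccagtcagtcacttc

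The motifs named below were searched on both strands of these windows, with overlaps between motifs allowed. TGTTCT was found in Agxt, 129 to 124 bases before the start, and occurs in 16.1% of the 32851 mouse promoter windows of the same length. TTGCNNAA, a C/EBP motif (9.56% of windows), was found in Hal on the plus strand. TATAAA, the letters of the TATA box (12.4%), was found there only on the minus strand, opposite to the gene. TGACG, a cyclic AMP response motif (17.8%), and CAAAGTCCA, an HNF4 core (0.384%), were in none of the 5. A match describes letters only.

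The mitochondrial enzymes of the urea cycle come first. Cps1 (chromosome 1, 67123026 to 67231259, GRCm38), the entry enzyme, measured 1645 and 1389 CPM in control, 419.8 and 494 in SLIT2, 943 and 1375 in APAP, and 672 and 448 in SLIT2+APAP libraries. Every treated library lay below both controls, APAP 4 by a small margin. Otc (chromosome X, 10252305 to 10321024) measured 513 and 544 CPM in control, 234 and 163 in SLIT2, 291 and 316 in APAP, and 443 and 354 in SLIT2+APAP libraries. Its treated libraries were also all below the controls, and unlike Cps1 it was higher in both SLIT2+APAP libraries than in both APAP libraries.

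Of the cytosolic enzymes, Ass1 (chromosome 2, 31470207 to 31520672), which makes argininosuccinate, measured 1269 and 1733 CPM in control, 414 and 362 in SLIT2, 3336 and 1200 in APAP, and 939 and 576 in SLIT2+APAP libraries. The APAP pair enclosed the controls. Arg1 (chromosome 10, 24915221 to 24927484), the arginase that releases urea, measured 1669 and 1655 CPM in control, 278 and 262 in SLIT2, 1549 and 1012 in APAP, and 1253 and 741 in SLIT2+APAP libraries. The SLIT2 libraries were far below the other 6, which lay at 741 CPM or more.

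Gls2 (chromosome 10, 128194457 to 128210004), which frees ammonia from glutamine, measured 235 and 272 CPM in control, 131 and 205 in SLIT2, 193 and 170 in APAP, and 245 and 182 in SLIT2+APAP libraries. The SLIT2+APAP libraries overlapped the controls. Gls2 overlaps Spryd4 on the opposite strand, and no source used here gives the strand setting of the counting, so some reads may belong to the neighbour, which had 20.6 CPM in controls against 253 for Gls2.

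Histidine is broken down by HAL to urocanate and by UROC1 from there. Hal (chromosome 10, 93488768 to 93519304) measured 194 and 256 CPM in control, 93.5 and 84.3 in SLIT2, 58.4 and 293 in APAP, and 192 and 169 in SLIT2+APAP libraries. The lowest and the highest of its 8 values were both in the APAP group. Uroc1 (chromosome 6, 90333284 to 90364551) measured 110 and 186 CPM in control, 242 and 287 in SLIT2, 195 and 242 in APAP, and 242 and 214 in SLIT2+APAP libraries. All its treated libraries lay above both controls.

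Sds (chromosome 5, 120476526 to 120483932, plus strand), which turns serine into pyruvate and ammonia, measured 167 and 218 CPM in control, 334 and 377 in SLIT2, 881 and 137 in APAP, and 247 and 169 in SLIT2+APAP libraries. The APAP pair held its highest and its lowest value. Its homologue Sdsl (chromosome 5, 120458186 to 120472810, minus strand), whose start is 3.72 kb away, measured 16.5 and 22.2 CPM in control, 9.20 and 10.3 in SLIT2, 37.5 and 16.5 in APAP, and 7.77 and 7.07 in SLIT2+APAP libraries. The SLIT2+APAP libraries were the lowest of the 8. Sds overlaps Plbd2 and Gm15690 on the opposite strand, with 33.1 and 3.38 CPM in controls, so its reads are uncertain to that extent.

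Agxt (chromosome 1, 93135240 to 93145421), which detoxifies glyoxylate to glycine, measured 205 and 189 CPM in control, 34.3 and 32.8 in SLIT2, 186 and 159 in APAP, and 123 and 104 in SLIT2+APAP libraries. The 4 groups did not overlap and stood in the order control, APAP, SLIT2+APAP, SLIT2.

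**Figure D1:**
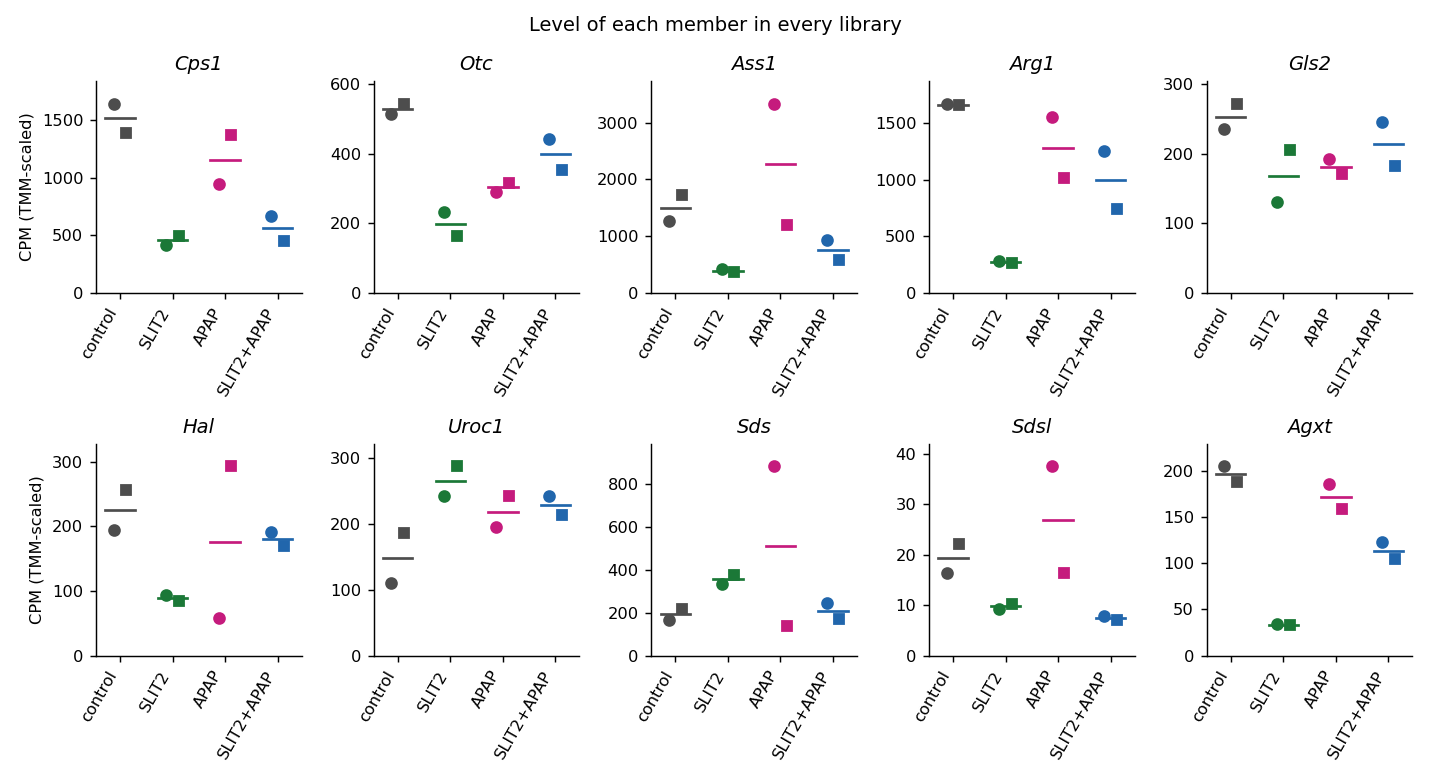
CPM on TMM-scaled library sizes (vertical axes, from 0) of the 10 enzymes in each of 8 libraries; circles and squares are the 2 libraries of a group and lines their mean. The 2 APAP libraries lie far apart for Ass1 (3336 and 1200 CPM), Hal (58.4 and 293) and Sds (881 and 137).

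Per kilobase of exon, the scale on which genes can be compared, Arg1 led in control livers with 746 ± 4.44 CPM per kb (SD, n = 2). Ass1 followed with 622 ± 136, Cps1 with 273 ± 32.6, Otc with 125 ± 5.17, Agxt with 116 ± 6.90 and Sds with 114 ± 21.6. Arg1 and Ass1 differed by less than the SD of Ass1, and Otc, Agxt and Sds could not be ordered within their spread. Gls2 had 72.9 ± 7.51, Uroc1 42.7 ± 15.5, Hal 40.6 ± 7.86 and Sdsl 12.9 ± 2.72 CPM per kb, with Uroc1 and Hal overlapping. In SLIT2 livers the order was led by Sds with 210 ± 17.9 CPM per kb, ahead of Ass1 with 161 ± 15.3, Arg1 with 121 ± 4.87 and Cps1 with 82.2 ± 9.41. Ass1 led in APAP livers with 940 ± 626 CPM per kb, followed by Arg1 with 575 ± 171. Arg1 led again in SLIT2+APAP livers with 447 ± 162, followed by Ass1 with 314 ± 106. Sdsl was the lowest of the 10 in all 4 groups.

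The question of the APAP comparison is what the toxic dose alone did to these enzymes. None of the 10 was called, against 0.788% of all genes (133 of 16876). At an unadjusted p under 0.05, 1 enzyme (Otc) and 4148 genes passed. DESeq2 called 1 enzyme, also Otc, where it called 1926 of the 16876 genes. Otc was lower in both APAP libraries, with a log2 fold change of -0.80 ± 0.26 (adjusted p = 0.121, edgeR). Of the 10, 6 had negative and 4 positive log2 fold changes, with a median of -0.28 beside 0.05 over all genes tested. Uroc1 stood at 0.56 ± 0.29 (adjusted p = 0.277, edgeR), Gls2 at -0.48 ± 0.28 (adjusted p = 0.324) and Agxt at -0.19 ± 0.21 (adjusted p = 0.597).

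The APAP libraries, numbered 3 and 4 in the labels, disagreed over several of the enzymes. They differed by 2.69 on the log2 scale for Sds, 2.33 for Hal, 1.48 for Ass1 and 1.19 for Sdsl, and 29.6% of all genes differed by more than 1 between them. In the other groups no enzyme differed by more than 0.77. Sds, Ass1 and Sdsl were the higher in APAP 3, and Hal was the higher in APAP 4. Without APAP 4, the log2 fold changes were 2.18 for Sds, 0.94 for Sdsl, 1.14 for Ass1 and -1.96 for Hal. Without APAP 3 all 4 changed sign, with Sds at -0.49, Hal at 0.38, Ass1 at -0.32 and Sdsl at -0.23. Asl, the urea cycle enzyme after Ass1, measured 1046 CPM in APAP 3 and 284 in APAP 4. Tat, the tyrosine aminotransferase and a textbook glucocorticoid target, measured 2961 and 1027 CPM, and Pck1, a gluconeogenic enzyme, 623 and 2584.

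**Figure D2:**
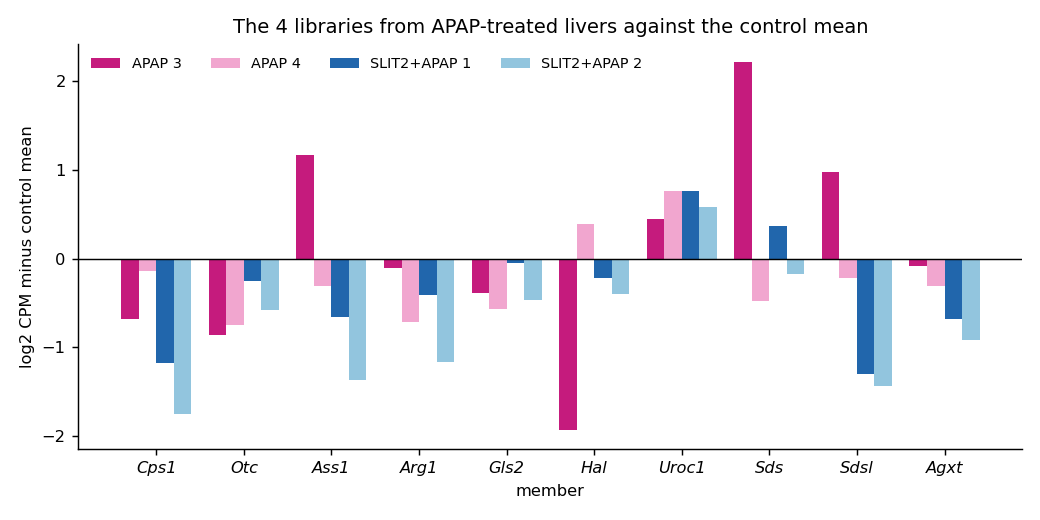
Log2 CPM of each enzyme minus the mean log2 CPM of the 2 control libraries (vertical axis), for the 2 APAP and 2 SLIT2+APAP libraries; each bar is 1 library. APAP 3 and APAP 4 point in opposite directions for Ass1, Hal, Sds and Sdsl, and all 4 bars of Uroc1 are above 0.

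The perivenous counterparts gave low values in APAP livers, with no call. Oat measured 867 ± 61.4 CPM in control and 179 ± 110 in APAP livers (SD, n = 2), a log2 fold change of -2.28 ± 0.56 (adjusted p = 0.0779, edgeR). Glul measured 564 CPM in APAP 3 and 33.0 in APAP 4, against 807 and 680 in controls. Of 15 pericentral genes, 2 were called lower and 0 higher, where 0.456% of all genes were called lower. They were Lgr5, a receptor of the WNT pathway that fell by 3.11 on the log2 scale, and the organic cation transporter Slc22a3, which fell by 1.81. None of 12 other urea cycle and ammonia genes was called.

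With SLIT2 alone, 5 of the 10 enzymes were called lower and 1 higher on TMM-scaled libraries. Arg1 fell 6.16-fold and Agxt 5.87-fold. Ass1 fell 3.87-fold, Cps1 3.32-fold and Otc 2.67-fold, and Uroc1 rose 1.79-fold. Of all genes, 27.6% were called lower and 27.3% higher. Among the 917 genes with a mean of at least 100 CPM, which include 9 of the 10 enzymes, 66.3% were called lower, with a median log2 fold change of -1.53 beside -1.38 for the 10 enzymes. All 5 enzymes called lower are among those 9.

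By role, the log2 fold changes with SLIT2 alone were -1.73 ± 0.32 for Cps1 (adjusted p = 0.00256, edgeR) and -1.41 ± 0.26 for Otc (adjusted p = 0.00262). Those of the cytosolic enzymes were -1.95 ± 0.49 for Ass1 (adjusted p = 0.0110, edgeR) and -2.62 ± 0.35 for Arg1 (adjusted p = 0.000581). All 4 measured urea cycle enzymes of the set were thus called lower. Gls2 stood at -0.59 ± 0.28 (adjusted p = 0.107, edgeR). The histidine enzymes differed in sign, with Hal at -1.34 ± 0.61 (adjusted p = 0.0933, edgeR) and Uroc1 at 0.84 ± 0.29 (adjusted p = 0.0406). The serine dehydratases also differed in sign, Sds at 0.89 ± 0.69 (adjusted p = 0.303, edgeR) and Sdsl at -0.99 ± 0.37 (adjusted p = 0.0505). Agxt stood at -2.55 ± 0.22 (adjusted p = 0.000116, edgeR). Some alternatives added calls. DESeq2 also called Hal and Sdsl lower, 8 enzymes in all, where it called 9335 of the 16876 genes. A fit of only the libraries compared added Hal, Sdsl and Sds (higher), 9 in all, where 10570 of 16146 genes were called. Offsets for GC content added Sdsl, 7 in all, where 9269 genes were called. The call of Uroc1 was lost without control 1 (adjusted p = 0.309), SLIT2 1 (0.0702), SLIT2 2 (0.136) or either SLIT2+APAP library (0.0821 and 0.0822), with no count filter (0.0598) and without the mitochondrially encoded genes (0.0543), and that of Ass1 without control 2 (0.0571) or SLIT2 2 (0.0666), all by edgeR.

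**Figure D3:**
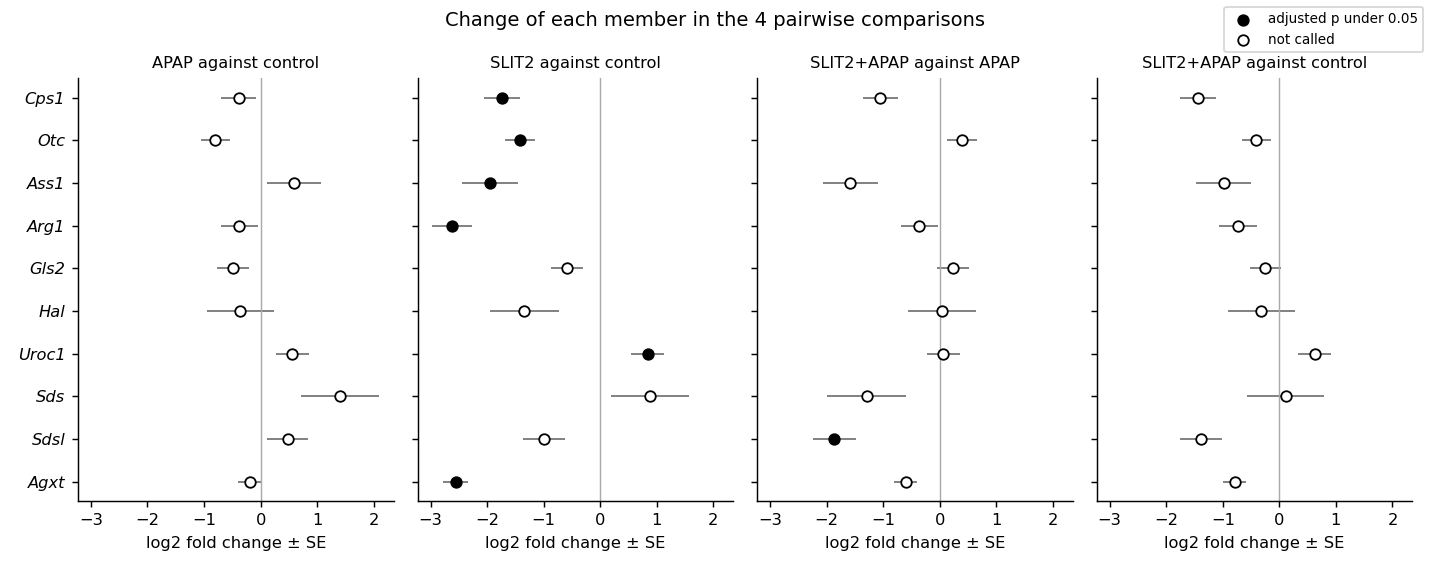
The edgeR log2 fold change with its standard error (horizontal axes) of the 10 enzymes in 4 pairwise comparisons; filled points have an adjusted p under 0.05 over all genes tested. Filled points number 6 in SLIT2 against control (Uroc1 to the right of 0), 1 in SLIT2+APAP against APAP (Sdsl) and 0 in both others.

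**Figure D4:**
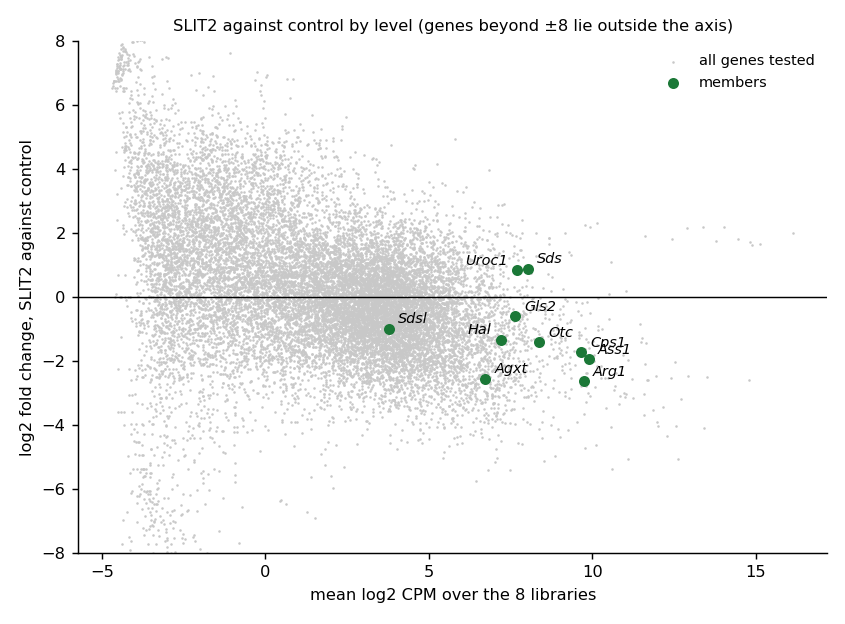
Mean log2 CPM over the 8 libraries (horizontal axis) against the log2 fold change of SLIT2 against control (vertical axis); grey points are all genes tested and green points the 10 enzymes. Most abundant genes lie below 0, and 9 of the 10 enzymes have a mean of at least 100 CPM.

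How far the enzymes moved with SLIT2 depended on what the libraries were scaled to. As a share of the counts outside the 13 mitochondrially encoded genes, the 10 enzymes together made up 0.630% and 0.739% in control libraries and 0.591% and 0.667% in SLIT2 libraries, so that these groups overlapped. With library totals outside those genes as the only scaling, an alternative added after the data were seen, the median log2 fold change over all genes moved from -0.005 to 1.42 and that of the enzymes from -1.38 to -0.03. Arg1 (-1.26, adjusted p = 0.00464, edgeR) and Agxt (-1.19, adjusted p = 0.000947) were then still called lower, where 8.35% of genes were. Uroc1 (2.19, adjusted p = 0.000512, edgeR), Sds (2.24, adjusted p = 0.0179) and Gls2 (0.78, adjusted p = 0.0409) were called higher, where 56.7% of genes were. Cps1 at -0.36, Otc at -0.07 and Ass1 at -0.60 lost their calls, and Gls2, Hal (0.01) and Sdsl (0.36) changed sign. Relative to the shifted median of all genes, 8 of the 10 enzymes were still lower. Arg1 and Agxt were lower and Uroc1 higher under both scalings. The part of the high mitochondrial share of the SLIT2 libraries in these results was not tested.

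**Figure D5:**
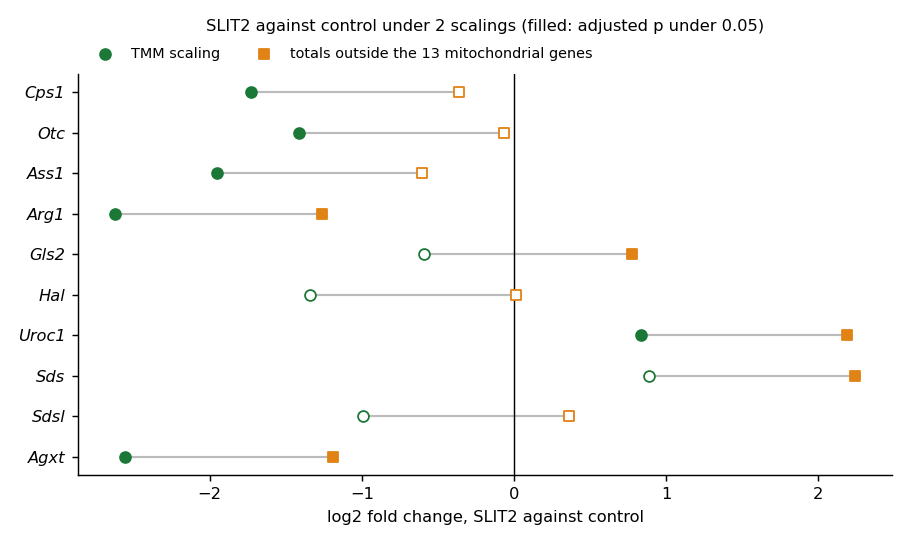
Log2 fold change of SLIT2 against control (horizontal axis) for each enzyme on TMM-scaled libraries (green circles) and on library totals outside the 13 mitochondrially encoded genes (orange squares); filled symbols have an adjusted p under 0.05. Arg1 and Agxt stay left of 0 and filled under both, Uroc1 stays right of 0 and filled, and Gls2, Hal and Sdsl cross 0.

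The genes that serve the same pathways moved in both directions with SLIT2 alone. Of 12 other urea cycle and ammonia genes, 6 were called lower and 2 higher, with a median log2 fold change of -1.19. Slc25a15, the mitochondrial ornithine carrier, fell by 2.35, Glud1, glutamate dehydrogenase, fell by 2.60 and Nags, which makes the activator of CPS1, fell by 2.12 on the log2 scale. Car5a, the carbonic anhydrase that supplies bicarbonate to CPS1, rose by 1.59 and the glutamine transporter Slc38a3 rose by 1.33. With totals outside the mitochondrially encoded genes, Slc25a15, Glud1 and Nags were still called lower (-0.99, -1.25 and -0.76) and Car5a and Slc38a3 higher (2.95 and 2.69). Of the 12, 3 were then called lower and 5 higher, 2 changed sign, and the list's median was 0.16.

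Downstream of Hal and Uroc1, the histidine list had 1 gene called higher and 2 lower of 6. Ftcd, which takes the formimino group onto folate, measured 264 ± 14.4 CPM in control and 446 ± 71.5 in SLIT2 livers (log2 fold change 0.75, adjusted p = 0.0295, edgeR). Amdhd1, the enzyme between Uroc1 and Ftcd, measured 145 ± 17.3 and 124 ± 8.84 CPM and was not called. It changed sign, to a log2 fold change of 1.14, with totals outside the mitochondrially encoded genes. Mthfs and Mthfd1, enzymes of folate metabolism, fell by 2.32 and 1.62 on the log2 scale, and Mthfd1 lost its call (-0.26) under the other scaling.

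Around Sds, Sdsl and Agxt, 11 of 19 serine, glycine and glyoxylate genes were called lower and 2 higher. Dmgdh, dimethylglycine dehydrogenase, fell by 3.35 on the log2 scale. Gldc and Dld of the glycine cleavage system fell by 2.82 and 2.83, and Grhpr, which reduces glyoxylate, fell by 2.68. These 4 were also called lower with totals outside the mitochondrially encoded genes (-1.99, -1.45, -1.47 and -1.32). Phgdh, the entry enzyme of serine synthesis, rose by 3.15 from a level of 0.123 ± 0.0109 CPM in control to 1.10 ± 0.0791 in SLIT2 livers. Prodh2, hydroxyproline dehydrogenase, rose by 0.98. Under the other scaling, 6 of the 19 changed sign, 8 were called lower and 6 higher, and the list's median log2 fold change turned from -1.07 to 0.29.

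Regulators of amino acid catabolism were called in both directions with SLIT2 alone. The glucagon receptor Gcgr rose by 1.35 and the coactivator Ppargc1a by 1.22 on the log2 scale, and both rose under the other scaling as well (2.71 and 2.58). Cebpa at -0.96 and Cebpb at -0.87, transcription factors of hepatocyte genes, were called lower on TMM-scaled libraries, and both changed sign with totals outside the mitochondrially encoded genes (0.38 and 0.49, neither called). Of 5 perivenous ammonia and glutamine genes, Oat (-3.97) and the amino acid transporter Slc1a4 (-1.76) were called lower, and Glul stood at -2.01 ± 1.08 (adjusted p = 0.150, edgeR). Slc1a4 lost its call under the other scaling, at -0.40. Among 14 other periportal genes, 7 were called lower and 1 higher. Fbp1 of gluconeogenesis fell by 3.51, Igfbp2 by 3.81 and Cyp2f2 by 2.01, and Sox9, a cholangiocyte and periportal factor, rose by 2.01 on the log2 scale. Under the other scaling 4 of these 14 were called lower and 3 higher, and 5 changed sign, Fbp1, Igfbp2, Cyp2f2 and Sox9 not among them.

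Hepatocyte markers and markers of other cells also differed in the SLIT2 libraries, and their part in the enzymes' values was not tested. Of 12 hepatocyte markers, 10 were called lower, with a median log2 fold change of -2.57, beside -1.38 for the enzymes. Summed neutrophil markers were 37.6 and 33.8 CPM in SLIT2 against 3.59 and 4.67 CPM in control libraries, with 2 of the 8 at 0 counts in both SLIT2 libraries. Cxcr2 alone supplied 26.8 and 26.3 CPM of the SLIT2 sums. Of the 7 tested, Cxcr2, Csf3r and Mpo were called higher, while S100a8 (0.775 ± 0.287 CPM in control, 1.13 ± 0.882 in SLIT2 livers) and S100a9 (0.719 ± 0.0390 and 0.855 ± 0.646) were not called. Summed Kupffer cell and macrophage markers were 48.7 and 52.5 against 85.4 and 108 CPM. Of these 10 markers, 6 were called lower and 0 higher on TMM-scaled libraries, and 1 lower and 5 higher with totals outside the mitochondrially encoded genes, where the median log2 fold change turned from -1.16 to 0.20.

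The comparison of SLIT2+APAP with APAP asks what SLIT2 changed in livers exposed to the toxic dose. Of the 10 enzymes, 1 was called lower and 0 higher, where 7.64% of genes were called lower and 6.29% higher. Sdsl was the enzyme called, with 27.0 ± 14.9 CPM in APAP and 7.42 ± 0.496 in SLIT2+APAP livers (SD, n = 2), a log2 fold change of -1.86 ± 0.38 (adjusted p = 0.0202, edgeR). The call was lost without either SLIT2+APAP library (adjusted p = 0.128 and 0.182, edgeR) and in a fit of only the libraries compared (0.112). Without APAP 4 the log2 fold changes were -2.12 for Ass1, -2.07 for Sds, -0.70 for Agxt and 1.64 for Hal. Without APAP 3 those of Cps1 and Hal were -1.30 and -0.70.

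Ass1 at -1.58 ± 0.49 (adjusted p = 0.0663, edgeR) and Cps1 at -1.05 ± 0.31 (adjusted p = 0.0612) were lower in both SLIT2+APAP libraries than in both APAP libraries without passing the threshold. DESeq2 called both, beside Sdsl, where it called 3691 of the 16876 genes. Agxt stood at -0.60 ± 0.21 (adjusted p = 0.0881, edgeR). Otc had the highest of the 10 log2 fold changes, 0.39 ± 0.26 (adjusted p = 0.321, edgeR). Sds stood at -1.29 ± 0.69 (adjusted p = 0.233, edgeR) with all APAP libraries, and at 0.60 without APAP 3. Hal (0.04) and Uroc1 (0.06) lay near 0, Gls2 stood at 0.24 and Arg1 at -0.36, and none of these 4 was called. The enzymes' median was -0.48 beside -0.06 over all genes. With totals outside the mitochondrially encoded genes these medians were -0.05 and 0.38, Arg1 changed sign to 0.06, and Sdsl stayed the 1 call at -1.40 (adjusted p = 0.0339, edgeR).

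Among genes of the same pathways, Car5a was the 1 of 12 other urea cycle and ammonia genes called, higher by 1.40 on the log2 scale. Asl stood at -1.51 ± 0.55 (adjusted p = 0.0999, edgeR). Of 19 serine, glycine and glyoxylate genes, 3 were called lower: Gnmt, glycine N-methyltransferase, fell by 3.06, Grhpr by 1.75 and Gcat, of threonine and glycine metabolism, by 0.77. Gcat lost its call, at -0.33, with totals outside the mitochondrially encoded genes. Among the regulators, Crtc2 (-1.17) and Cebpb (-1.15) were called lower and the glucocorticoid receptor Nr3c1 higher (0.95). Under the other scaling Nr3c1 kept its call, and Crtc2 (-0.70) and Cebpb (-0.68) lost theirs. Of 14 other periportal genes, 5 were called lower, with Fbp1 at -2.33 and Igfbp2 at -2.56, and under the other scaling those 2 alone were called. Of 15 pericentral genes, 3 were called higher, Lgr5 at 2.55, Slc22a3 at 1.75 and Cyp2a5 at 1.70, and Cyp2e1, which activates APAP, was called lower at -1.47. Under the other scaling Cyp2e1 lost its call, at -1.06 (adjusted p = 0.0548, edgeR), and the other 3 kept theirs.

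Set against controls, none of the 10 enzymes was called in SLIT2+APAP livers, where 2.16% of all genes were. At an unadjusted p under 0.05, 3 enzymes and 3445 genes passed. The 3 were Cps1 at -1.44 ± 0.32 (adjusted p = 0.0598, edgeR), Sdsl at -1.38 ± 0.37 (adjusted p = 0.0918) and Agxt at -0.79 ± 0.21 (adjusted p = 0.0856), each below both controls in both libraries. DESeq2 called all 3, where it called 1547 of the 16876 genes. An edgeR fit of only the libraries compared called these 3 and Ass1, all lower, where it called 4246 of 15496 genes. Without the SLIT2 libraries 0 enzymes were called, where 3 of 15932 genes were. The calls thus depended on which libraries entered the fit. Without APAP 3 or without APAP 4 the log2 fold changes of Cps1, Sdsl and Agxt stayed at -1.44, -1.38 and -0.79. Ass1 stood at -0.99 ± 0.48 (adjusted p = 0.302, edgeR), Arg1 at -0.74 ± 0.33 (adjusted p = 0.265) and Otc at -0.41 ± 0.26 (adjusted p = 0.425). Uroc1, at 0.62 ± 0.29 (adjusted p = 0.284, edgeR), was above both controls in both libraries. Of the 10 log2 fold changes, 8 were negative, with a median of -0.57 beside 0.04 over all genes. With totals outside the mitochondrially encoded genes these medians were -0.08 and 0.55, and Otc (0.09), Gls2 (0.25) and Hal (0.18) changed sign. Of the 14 other periportal genes, Fbp1 (-2.51), Cyp2f2 (-1.66) and Igfbp2 (-2.06) were called lower, where 1.45% of genes were, and 0 higher. The list as a whole was split, with 7 negative and 7 positive log2 fold changes and a median of 0.02. Under the other scaling 3 of the 14 were called lower and 2 higher, with a median of 0.52.

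The interaction asks whether the effect of SLIT2 with APAP differed from its effect without APAP. It was called for 3 of the 10 enzymes, all positive, where 15.5% of genes were called positive. Otc, Arg1 and Agxt were 2.67-, 6.16- and 5.87-fold lower with SLIT2 when APAP was not given. With APAP, their log2 fold changes were 0.39, -0.36 and -0.60. The difference between the effects was 1.81 ± 0.37 for Otc (adjusted p = 0.0123, edgeR), 2.26 ± 0.48 for Arg1 (adjusted p = 0.0136) and 1.95 ± 0.29 for Agxt (adjusted p = 0.00540). The median over the 917 abundant genes was 1.28, beside 0.76 for the 10 enzymes.

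For Cps1 the difference was 0.68 ± 0.44 (adjusted p = 0.266, edgeR) and for Ass1 0.37 ± 0.67 (adjusted p = 0.703), so a difference was not detected for these urea cycle enzymes. Sds had the lowest value, -2.18 ± 0.98 (adjusted p = 0.125, edgeR). Agxt was called with each library left out in turn. Otc lost its call without control 1 (adjusted p = 0.0511, edgeR), control 2 (0.0522) or SLIT2+APAP 1 (0.0661), and Arg1 without control 1 (0.0537) or SLIT2+APAP 1 (0.0635). With totals outside the mitochondrially encoded genes, Arg1 and Agxt were still called positive, where 5.52% of genes were, and Otc was not (0.88, adjusted p = 0.0765, edgeR). Uroc1, Sds and Sdsl were then called negative, where 31.0% of genes were, and the median over all genes moved from -0.09 to -1.06. Of 12 other urea cycle and ammonia genes, 4 were called positive: Slc25a15 (2.04), Glud1 (2.44), Nags (1.56) and Aqp9, a glycerol and urea channel (1.73). Under the other scaling Slc25a15 and Glud1 kept the call, Slc38a3, Asl and Car5a were among those called negative, and the list's median turned from 0.36 to -0.51.

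The enzymes did not share 1 profile over the 8 libraries. Pearson's r of each enzyme with the mean standardized profile of the 10, which includes the enzyme itself, was 0.95 for Arg1, 0.93 for Agxt, 0.92 for Ass1, 0.85 for Cps1 and 0.75 for Otc. It was 0.71 for Sdsl, 0.69 for Gls2, 0.41 for Hal, -0.04 for Sds and -0.52 for Uroc1. Among 8344 other genes with a mean of at least 5 CPM, the 5 with the highest r to that profile were Dgat2 (0.98), Wdr82 (0.98), Hsd17b7 (0.97), Thnsl2 (0.97) and Slc10a1 (0.97). Over the 6 libraries without the SLIT2 group the 5 were Rad23b (0.99), Park7 (0.99), Mpst (0.98), 1300017J02Rik (0.97) and Rab5c (0.96). These values describe 8 or 6 libraries that share group, depth and scaling, and they carry no test.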

How the data were processed

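Gene-level counts of 8 mouse liver libraries were used, 2 per group. The authors deposited whole-number counts, not scaled, for 23006 Ensembl genes. The library kit was directional, per the labels' protocols. STAR 2.5.4, Cufflinks, Cuffdiff 2.2.1 and the build mm10 are named, without roles, per the submitters' processing notes. No source used here gives the counting program, its annotation or its strand setting. Of 93 counts of at least 1000000, 72 end in 0. Symbols and positions came from GENCODE M21 (GRCm38, the assembly mm10 names), which matched 22341 identifiers (97.1%), and promoters from RefSeq (GRCm38.p6).

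Counts were fitted in R 4.3.3 with edgeR 4.0.16: filterByExpr (16876 genes), TMM, and a robust, non-legacy quasi-likelihood fit of 1 mean per group to all 8 libraries, with 4 residual degrees of freedom and a common dispersion of 0.112. The standard error of a log2 fold change is its size divided by the square root of F. Adjustment was over all genes tested in each of 5 comparisons. With 2 against 2 libraries an exact permutation test cannot go below p = 0.333, so none was used. The fitting code was tested on simulated data. Total counts ran from 60.8 to 100.5 M (M, 1000000), with at least 567 for each enzyme in every library.

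The enzymes and the gene lists were chosen with earlier results of these data known. Named from the other lists were up to 4 genes with the smallest p in the comparison described, those making up a count of 5 or fewer, Glul and Oat, and the 5 genes most alike in profile. Some values of these lists are not reported here. Asl, Tat, Pck1, Amdhd1, Spryd4, Plbd2 and Gm15690 were added after their values were seen or for their position. Alternatives were DESeq2 (1.42.0) factors or test, library totals, no count filter, the legacy fit, only the groups compared, leaving out the SLIT2 libraries, the 13 mitochondrially encoded genes or each library in turn, GC offsets and a replicate block. The replicate block was fitted without the APAP libraries. A scaling to totals outside the 13 genes was added after the data were seen. A library left alone in its group was taken to vary as the rest do. Figures were drawn with matplotlib 3.10.9.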

Additional observations from a re-analysis of the deposited data

Results flagged for a closer look

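The effect of SLIT2 differed with and without APAP for 3 of the 10 enzymes by the interaction test of edgeR. The effect with APAP minus that without was 1.81 on the log2 scale for Otc (adjusted p = 0.0123, edgeR), 2.26 for Arg1 (adjusted p = 0.0136) and 1.95 for Agxt (adjusted p = 0.00540). All 3 were lower in both SLIT2 libraries than in both controls. The SLIT2 libraries enter each of these differences, and 60.3% and 69.0% of their counts came from mitochondrially encoded genes. Their part in the differences was not tested. With the scaling to totals outside those genes the differences were 0.88 for Otc, 1.33 for Arg1 and 1.03 for Agxt, beside a median of -1.06 over all genes.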

How the results depend on the processing

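Of 890 values of single enzymes under alternatives, 792 kept direction and call, 53 gained a call, 21 lost it and 24 changed sign. The causes of these changes were not tested. In APAP against control, DESeq2 called 1 enzyme, and 0 to 3 were called with a library left out. Leaving out a library gave ranges of -0.32 to 1.14 for Ass1, -1.96 to 0.38 for Hal, -0.49 to 2.18 for Sds and -0.23 to 0.94 for Sdsl, with the sign changed without APAP 3. In SLIT2 against control, DESeq2 called 8 enzymes, where it called 9335 of 16876 genes. A fit of only the libraries compared called 9, where it called 10570 of 16146 genes. The calls also moved with a library left out, and totals outside the mitochondrially encoded genes turned Gls2 (0.78), Hal (0.0097) and Sdsl (0.36). In SLIT2+APAP against APAP, DESeq2 called 3 and a fit of only the libraries compared 0 (Sdsl adjusted p = 0.112, edgeR), and 0 to 5 were called with a library left out. Signs changed for Hal with GC offsets (-0.0045), Arg1 with totals outside the mitochondrially encoded genes (0.063), Hal, Uroc1 and Sds without APAP 3, and Hal and Uroc1 without SLIT2+APAP 1. Their ranges with a library left out were -0.70 to 1.64 for Hal, -0.091 to 0.24 for Uroc1 and -2.07 to 0.60 for Sds. In SLIT2+APAP against control, DESeq2 called 3, a fit of only the libraries compared 4, and the calls also moved with a library left out. Signs changed for Gls2 with library totals (0.045), for Otc (0.089), Gls2 (0.25) and Hal (0.18) with totals outside the mitochondrially encoded genes, and for Sds without control 1 or SLIT2+APAP 1 (range -0.19 to 0.37). In the interaction, totals outside the mitochondrially encoded genes gave 5 calls and turned Cps1 (-0.28), Ass1 (-0.53) and Gls2 (-0.11), and 1 to 6 were called with a library left out. Ass1 changed sign without APAP 4 (range -0.13 to 1.32).

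Control, SLIT2 and SLIT2+APAP libraries share the numbers 1 and 2. Over all genes tested, the deviations of same-numbered libraries from their group means correlated with r of 0.07, -0.07 and -0.01. Such correlations cannot exclude a shared batch or pairing that touches some genes, and what a shared number means is not known here. With the number as a block, in a fit that also left out the APAP libraries, 9 enzymes were called in SLIT2 against control. They were 2 higher and 7 lower, the further calls being Hal, Sds and Sdsl, where 11062 of 16419 genes were called. In SLIT2+APAP against control 3 were called (Cps1, Sdsl and Agxt, all lower), where 2494 genes were. A fit of only the libraries compared, with no block, called the same 9 in SLIT2 against control, where 10570 of 16146 genes were. In SLIT2+APAP against control it called those 3 and Ass1, where 4246 of 15496 genes were. No fit without a block left out the APAP libraries alone, so the part of the block was not fully separated. Comparisons with APAP have no block, since those libraries are numbered 3 and 4.

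The number of genes called moved with the fit by over 1.5 times in several comparisons. In APAP against control it was 133, 1926 with DESeq2, 0 with only the libraries compared and 5181 without APAP 4. In SLIT2+APAP against APAP it was 2351, 3691 with DESeq2, 1 with only the libraries compared and 6133 without APAP 4. In SLIT2+APAP against control it was 365, 1547 with DESeq2, 4246 with only the libraries compared, 2494 with the block and 3 without the SLIT2 libraries. In the interaction it was 4867, 1002 without SLIT2+APAP 1, 1456 without control 1, 1739 without control 2, 2050 without SLIT2 2, 2081 without SLIT2+APAP 2 and 8303 without APAP 4.

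With 2 libraries a group, small changes are hard to detect, and a missing call does not show that an enzyme kept its level. Directions in the SLIT2 group hold relative to the scaling named. Protein, zonation and enzyme activity were not measured here.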
